A study of Mus musculus with 6 samples.

Results

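The 8 Gimap genes followed here were Gimap1, Gimap3, Gimap4, Gimap5, Gimap6, Gimap7, Gimap8 and Gimap9, chosen by their gene identifiers as members of the mouse Gimap family with no measured value in the rule, out of 6469 gene IDs that had at least 1 tailed tag. All 8 members had tailed tags, 397 in all, but 6 of the 8 held nearly all of them. Gimap8 had 177 tags, Gimap6 63, Gimap3 54, Gimap7 51, Gimap4 44 and Gimap5 6, while Gimap1 and Gimap9 had 1 tag each.

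The study asked whether BTG1 and BTG2 act on mRNA in resting T cells. It used mTAIL-seq, which ligates a hairpin adaptor to the 3′ ends of total RNA, fragments the RNA with RNase T1 and reads the length of each poly(A) tail together with any base added after it. Naive CD4 T cells were sorted from mice as TCRb+ CD4+ CD25- cells with high CD62L and low CD44. The WT group were littermate controls that also carried both floxed alleles (Btg1 f/f Btg2 f/f), and the DKO group were Btg1 f/f Btg2 f/f mice with CD4-Cre, in which the recombinase is driven by Cd4 regulatory sequence and acts in T cells generally, not in the sorted subset alone. Each group had 3 libraries, numbered 1 to 3, and the labels speak of 2 pairs of mice without saying which libraries share animals. The p-values below rest on the differences among libraries of 1 genotype, and some of that variation may be technical. The labels give no age, and neither the deletion nor the purity of the sort was checked here, because the reference tables used here do not pair other gene IDs with names.

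GIMAP proteins (GTPases of immunity-associated proteins) are GTP-binding proteins found mainly in lymphocytes, where several of them sit on intracellular membranes. Mice or rats without Gimap5 lose peripheral T cells, and the family is known for its part in lymphocyte survival. BTG1 and BTG2 are adaptor proteins that bind the CCR4-NOT deadenylase, which removes poly(A) tails, and loss of a tail is a common start of mRNA decay.

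The family lies in 1 cluster on mouse chromosome 6 (build GRCm38, RefSeq gene models, 1-based). The cluster ran from 48647186 to 48770851, a span of 123.666 kb that held 10 annotated genes, 8 of them members. Gimap8 (ENSMUSG00000064262) came at 48647186 to 48660875 on the plus strand. It was followed on that strand by Gimap9 (ENSMUSG00000051124) at 48676121 to 48679116 and Gimap4 (ENSMUSG00000054435) at 48684578 to 48692062. Gimap6 (ENSMUSG00000047867) lay on the minus strand at 48701583 to 48708244, and Gimap7 (ENSMUSG00000043931) on the plus strand at 48718621 to 48724636. Gimap1 (ENSMUSG00000090019) at 48739047 to 48743795 and Gimap5 (ENSMUSG00000043505) at 48746197 to 48754200 were neighbours on the plus strand. Gimap3 (ENSMUSG00000039264) closed the cluster on the minus strand at 48764464 to 48770851. The tags themselves carry no coordinates in the tables used, so the exon or end of each gene they came from is not given. Gimap3 and Gimap5 are close relatives in sequence, and no member tag in any library was linked to a further gene ID.

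**Figure D1:**
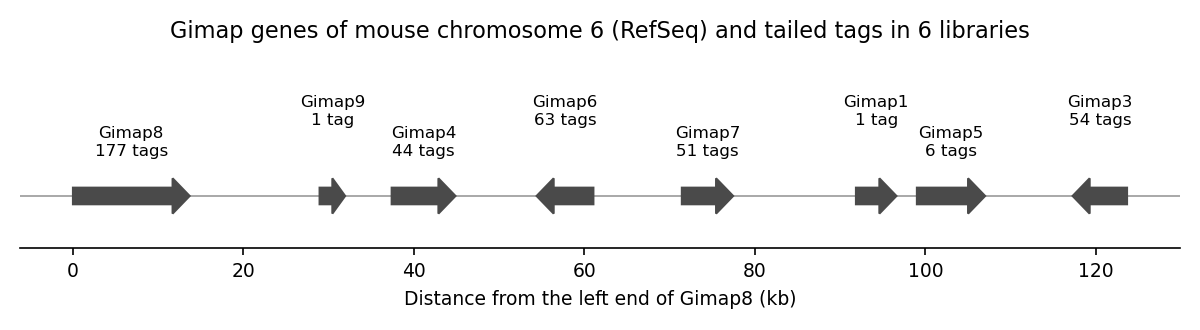
The Gimap cluster of chromosome 6 to scale, with distance from the left end of Gimap8 in kb on the horizontal axis; arrows are RefSeq gene spans pointing in the direction of transcription, and the number under each name counts tailed tags over 6 libraries. Gimap8, at the left end, had 177 of the 397 tags, and its neighbour Gimap9 had 1.

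The raw material of every value below is a tail such as these, read from single tags. The letters are those of the sequenced cDNA, so T stands for U in the RNA, and capitals mark the bases added after the tail. A read often covers only part of a tail, so the called length can exceed the letters shown. A plain Gimap4 tail and the 5 Gimap4 tails with a U among the added bases for which letters are listed are shown because Gimap4 had the highest share of such tags among the 5 members with over 40 tags. A short Gimap3 tail with added U is shown beside them. Its letters begin with T, so its called length of 18 nt may include bases that are not tail.
Gimap4, WT1, 31 nt, no added base: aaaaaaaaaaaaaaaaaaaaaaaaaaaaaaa
Gimap4, WT1, 23 nt: aaaaaaaaaaaaaaaaaaaaaaaaTAA
Gimap4, WT1, 111 nt, read in part: aaaaaaaaaaaaaaaaaaaaaaaaaaaT
Gimap4, WT2, 53 nt, read in part: aaaaaaaTT
Gimap4, DKO1, 51 nt: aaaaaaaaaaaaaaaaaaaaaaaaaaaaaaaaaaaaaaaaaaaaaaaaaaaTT
Gimap4, DKO1, 108 nt, read in part: aaaaaaaaaaaaaaaaaaaaaaaaaaaT
Gimap3, DKO2, 18 nt: tttaaaaaaaaaaaaaaaTT

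The libraries held 3943 to 24024 tailed, gene-linked tags, a tail counting from 5 nt. The libraries numbered 3 stood apart in both genotypes. Over all genes, WT3 averaged 48.3 nt per tail and DKO3 60.9 nt, against 70.3 to 78.9 nt in the other 4 libraries. Of their gene-linked tags, 28.0% in WT3 and 24.2% in DKO3 had no tail of 5 nt, against 5.99% to 8.04% elsewhere. Results are therefore also given without them. For tag counts, a test of whether the genotype change differed between them and the rest is given below. Their part in the results was not tested beyond that.

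Gimap mRNAs made up a larger share of tailed tags in every DKO library than in any WT library. Over the 8 members, the WT libraries had 24.8, 38.6 and 39.0 tags per 10000 tailed, gene-linked tags (42, 44 and 28 tags), and the DKO libraries had 60.0, 58.7 and 45.7 (124, 141 and 18 tags). The group means were 34.1 ± 8.12 in WT against 54.8 ± 7.93 in DKO (SD over 3 libraries each), a DKO to WT ratio of 1.604. No test was made of this sum. The exact 95% binomial intervals, which cover counting error only, were 25.9 to 56.3 in WT3 and 27.1 to 72.1 in DKO3, so those libraries could not be told apart at this depth. The ratio of DKO to WT was 2.42 between the libraries numbered 1, 1.52 between those numbered 2 and 1.17 between those numbered 3. Totals over all IDs were also multiplied by TMM factors, which compensate for a few abundant genes taking a different share. This gave 27.3, 39.99 and 44.9 in WT against 51.2, 50.7 and 47.2 in DKO, without overlap and with a ratio of 1.33. These factors had been fitted to totals of only the IDs that passed a filter on low counts, so they do not match totals over all IDs. For that reason the ratio of 1.33 is not a TMM-corrected ratio. A larger share of tags in bulk RNA cannot tell more RNA per cell from more cells that express it.

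Among single gene IDs, non-overlap in this direction was not rare. Of the 442 IDs with tags in every library, 55 had all DKO shares above all WT shares (12.4%) and 16 had all below (3.62%). Of the 4 members among those 442, Gimap3, Gimap4, Gimap6 and Gimap8, 1 had no overlap (Gimap3).

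**Figure D2:**
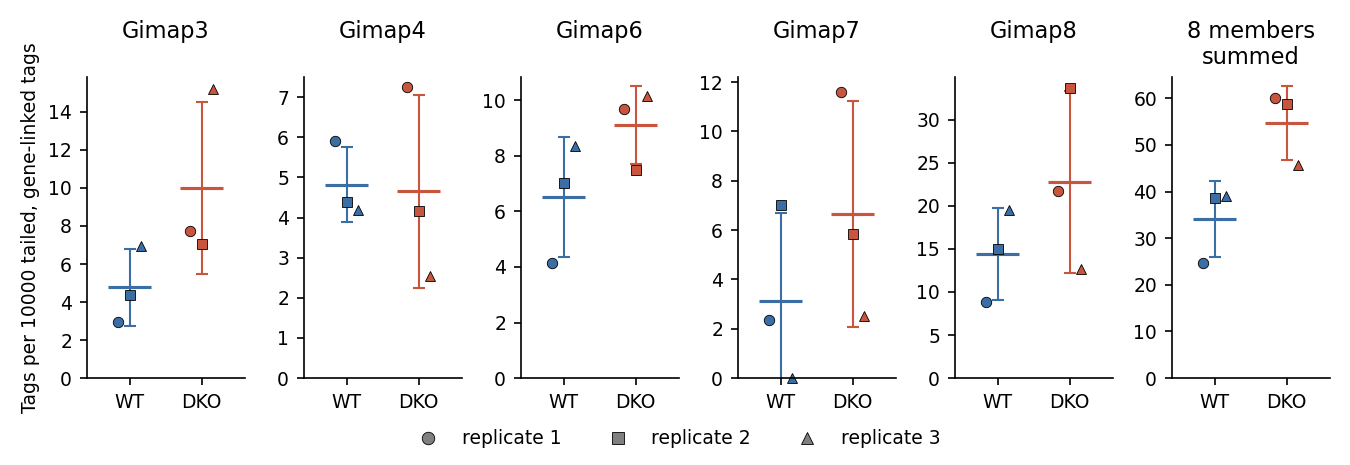
Tailed tags per 10000 tailed, gene-linked tags in each library (vertical axis, own linear scale in each panel) for 5 members and for the sum of all 8; symbols give the replicate number, horizontal bars the mean and error bars the SD over 3 libraries. The summed share was 24.8 to 39.0 in WT against 45.7 to 60.0 in DKO, Gimap3 also did not overlap, and Gimap4 ranged from 4.18 to 5.90 in WT and from 2.54 to 7.26 in DKO.

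Gimap3 and Gimap5 sit on intracellular membranes and have been tied to the BCL2 family of apoptosis regulators. Gimap3 had 5 tags in each WT library and 16, 17 and 6 in the DKO libraries. Per 10000 tags this was 2.95, 4.39 and 6.97 in WT against 7.74, 7.08 and 15.2 in DKO, with means of 4.77 ± 2.04 and 10.01 ± 4.52 (SD, n = 3 each). All 3 DKO libraries were above all 3 WT libraries by this measure, WT3 and DKO2 being nearly level. The two-sided exact permutation test gave p = 0.1, the smallest that 3 against 3 allows, and an adjusted p of 0.62 over 442 IDs. On the TMM-scaled log2 CPM (tags relative to scaled library size), WT was 9.44, 9.79 and 10.43 and DKO 10.42, 10.31 and 11.47, so the groups overlapped. Gimap5 was close to the floor of detection, with 1, 1 and 0 tags in WT against 3, 0 and 1 in DKO. At this depth no difference in Gimap5 was detectable.

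Gimap8 is the largest of the members, a protein with several GTPase domains in a row. It gave 15, 17 and 14 tags in WT against 45, 81 and 5 in DKO. Per 10000 tags this was 8.85, 14.9 and 19.5 in WT against 21.8, 33.7 and 12.7 in DKO. By this share the libraries numbered 1 and 2 were higher in DKO than in any WT library, and DKO3 lay below WT2 and WT3. On the TMM-scaled log2 CPM, WT was 10.69, 11.28 and 11.76 and DKO 11.75, 12.35 and 11.23. There WT3 was just above DKO1. The means were 14.4 ± 5.35 and 22.7 ± 10.6 (SD, n = 3 each), and the exact permutation test gave p = 0.3 (adjusted 0.89). The 5 tags of DKO3 allowed anything from 4.12 to 29.6 per 10000 (exact 95% interval).

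Gimap6, which has been linked to autophagy in lymphocytes, had 7, 8 and 6 tags in WT against 20, 18 and 4 in DKO. Its shares were 4.13, 7.03 and 8.36 per 10000 in WT against 9.67, 7.49 and 10.1 in DKO. DKO2 lay between WT2 and WT3, so the groups overlapped (means 6.51 ± 2.16 and 9.10 ± 1.42, SD, n = 3 each, exact permutation p = 0.2).

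Gimap7, a GTPase that forms dimers, had 4, 8 and 0 tags in WT against 24, 14 and 1 in DKO. Its shares of 2.36, 7.03 and 0 per 10000 in WT against 11.6, 5.83 and 2.54 in DKO overlapped. A count of 0 in WT3 still allowed a share of up to 4.18 per 10000, taken as 3 counts of the library total, and the exact 95% interval reached 5.14.

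Gimap4, which has been linked to the pace of T cell apoptosis, had the smallest difference in mean share among the members with over 40 tags. It had 10, 5 and 3 tags in WT against 15, 10 and 1 in DKO. Its shares of 5.90, 4.39 and 4.18 per 10000 in WT against 7.26, 4.16 and 2.54 in DKO lay on both sides of each other. The means were 4.82 ± 0.937 and 4.65 ± 2.40 (SD, n = 3 each, exact permutation p = 0.8).

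Gimap1, needed for mature T and B cells in mice, had a single tag in DKO2. Gimap9 had a single tag in DKO1. By the same limit of 3 counts, 0 tags in the WT libraries allowed shares of up to 1.77, 2.63 and 4.18 per 10000 (exact 95% upper limits 2.18, 3.24 and 5.14), so neither gene could be compared between genotypes.

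In the count model, edgeR's quasi-likelihood test with TMM scaling and Benjamini-Hochberg adjustment, 170 gene IDs passed the filter on low counts and 0 of them (0%) had an adjusted p under 0.05. At an unadjusted p under 0.05 there were 13 (7.65%), and DESeq2 likewise called 0, with 8 unadjusted. Only Gimap3, Gimap6 and Gimap8 passed the filter. All 3 had log2 changes above 0 with a median of 0.71. Of all IDs, 45.9% were above 0, and the median of all was -0.05. However, Gimap3 reached the filter's minimum only in the DKO libraries, and Gimap6 only in those and WT3. The filter thus favoured changes above 0 in both genes, so their directions add no support beyond the tests. Gimap3 had a log2 change of 0.90 (SE 0.56, edgeR adjusted p 0.54), Gimap8 0.71 (SE 0.48, adjusted p 0.60) and Gimap6 0.44 (SE 0.50, adjusted p 0.74). None of the 3 passed the test. With scaling by library totals alone the values were 1.19, 1.02 and 0.74, but the median of all IDs was then 0.24.

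Gimap8 passed the test in 1 setting, which was chosen after seeing the data. With the libraries numbered 1 and 2 only, edgeR tested 241 IDs and called 30 (12.4%), of which 7 were higher in DKO (2.9%). Gimap8 was among those 7, with a log2 change of 1.10 (SE 0.37, adjusted p 0.028), against a range of adjusted p over its 16 alternatives of 0.028 to 0.95. The other 4 members tested there did not pass: Gimap3 had 0.88 (edgeR adjusted p 0.27), Gimap7 0.82 (adjusted p 0.27), Gimap6 0.50 (adjusted p 0.52) and Gimap4 -0.09 (adjusted p 0.91). The test of whether the genotype change differed between the libraries numbered 3 and the rest gave -1.76 for Gimap8 (log2, SE 0.85, edgeR p 0.045, adjusted p 0.27), which did not pass. Without a filter all 8 members had log2 changes above 0, as did 62.1% of the 6469 IDs, and none passed.

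**Figure D3:**
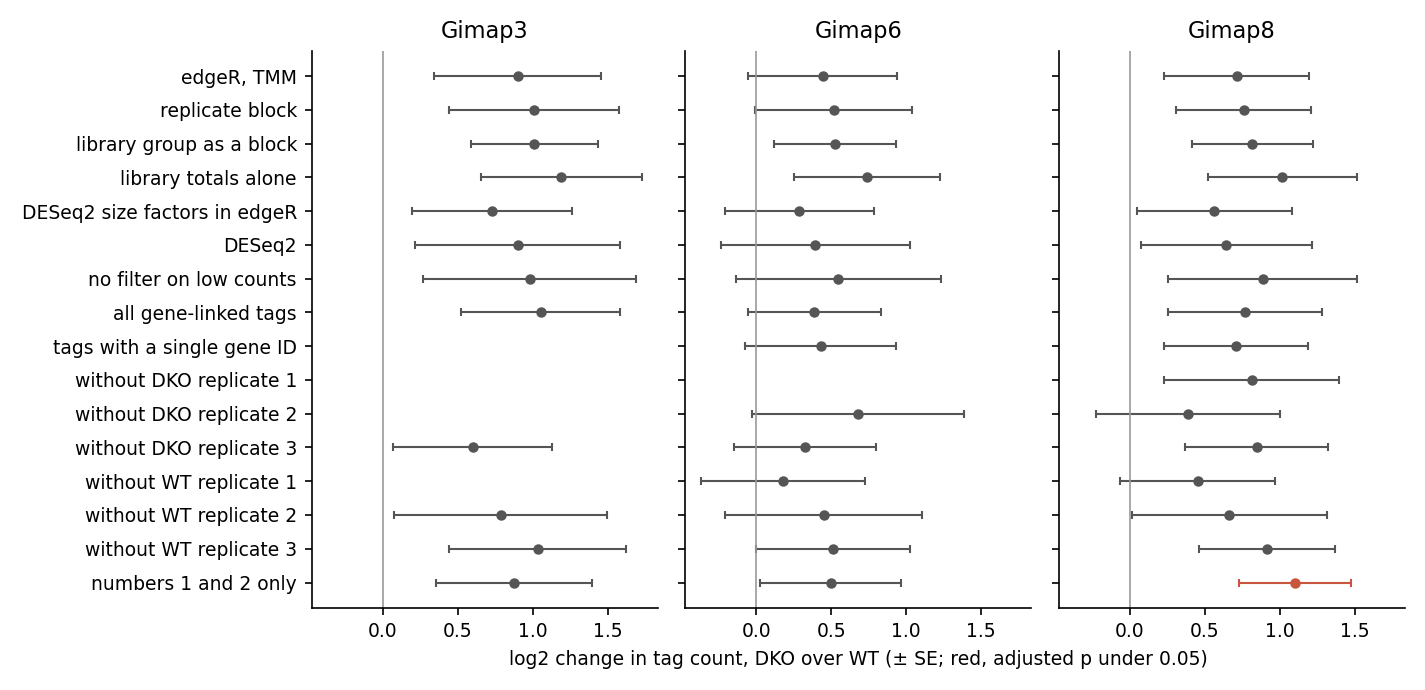
Log2 change in tag count, DKO over WT, with its standard error (horizontal axis) for the 3 members that edgeR tested, under each setting (vertical axis); a gap means that the gene did not pass the low-count filter there, and red marks an adjusted p under 0.05. Every point was above 0, from 0.18 for Gimap6 to 1.19 for Gimap3. With all libraries, Gimap3 passed the filter through the DKO libraries alone. Its points above 0 were thus favoured by the filter and do not show agreement across settings. The 1 red point is Gimap8 with the libraries numbered 1 and 2 only, at 1.10.

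Tail lengths of Gimap mRNAs did not pass a test between genotypes in any setting in which a member could be tested. The mean over all member tags was 74.2, 72.1 and 44.3 nt in WT against 66.2, 78.5 and 74.7 nt in DKO. The low value belonged to WT3, whose tails were also short over all genes, and the other 5 values lay between 66.2 and 78.5 nt. The means were 63.5 ± 16.7 and 73.1 ± 6.30 nt (SD, n = 3 each), a difference of 9.61 nt that became -0.02 nt without WT3. Relative to the mean of its own library, the family was -0.47, 1.76 and -4.07 nt in WT against -6.07, -0.45 and 13.8 nt in DKO. The planned limma test on log2 mean tail length asked for 10 or more tailed tags per gene ID in each library, a minimum that 44 IDs and none of the 8 members reached. It called 0 of 44 (0%), with 2 at an unadjusted p under 0.05.

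With at least 5 tags in every library, limma tested 76 IDs, called 0 (0%) and had 3 at an unadjusted p under 0.05. Gimap3 and Gimap8 were among the 76, with log2 changes of 0.14 (SE 0.24) and 0.32 (SE 0.35), both at an adjusted p of 0.92. Of the 76 IDs, 70 had longer tails in DKO (92.1%). After each library was centred on its median, Gimap3 was at -0.01 and Gimap8 at 0.18.

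Gimap8 tails had a wide spread of called lengths. In some Gimap8 tags the listed letters held T and C before the final run of A. This was so in a 50 nt tag of DKO1 with 50 listed letters and in a 44 nt tag of WT1 with 47. Called Gimap8 lengths may therefore include bases that are not tail, and how many was not tested. Such letters were not confined to Gimap8, as a 65 nt tag of Gimap3 in WT1 held G and T between runs of A. The mean Gimap8 tail was 99.1, 91.2 and 40.4 nt in WT against 76.2, 85.2 and 110 nt in DKO, and DKO3 rested on 5 tags. WT1 had 3 of its 15 tags at 231 nt, the longest length listed in the tables, and its mean without them was 66.2 nt. The medians, which such tags move little, were 64, 70 and 39.5 nt in WT against 76, 76 and 97 nt in DKO. By medians all DKO libraries were above all WT libraries, and by means they were not. The same non-overlap of medians was found in 40 of 442 IDs (9.05%), and the exact permutation test of the Gimap8 medians gave p = 0.1, the smallest possible, with an adjusted p of 1. Medians all below WT were found in 3 IDs (0.679%). In means, 22 of 442 IDs had all DKO libraries above (4.98%) and 5 all below (1.13%). With the libraries numbered 1 and 2 only, the limma log2 change of the mean was -0.24 (SE 0.11, adjusted p 0.79), so means and medians differed in direction in those libraries. Over all 6 libraries both were higher in DKO, by 13.6 nt in the mean and 25.2 nt in the median.

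Gimap3 had mean tails of 71.8, 65.6 and 40.2 nt in WT against 65.9, 69.5 and 55.3 nt in DKO. Both libraries numbered 3 were the lowest of their genotype, and the groups overlapped (59.2 ± 16.7 and 63.6 ± 7.36 nt, SD, n = 3 each, exact permutation p = 0.8). Gimap6 had 66.1, 66.8 and 56.8 nt in WT against 53.9, 70.1 and 75 nt in DKO, which overlapped as well (exact permutation p = 0.6 for 3 against 3 libraries).

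Gimap4 tails were short in both genotypes. Their mean was 48.0, 52.0 and 44.0 nt in WT against 57.9, 64.1 and 15 nt in DKO, the last from a single tag. Without that tag the DKO libraries were above all 3 WT libraries, and with it the means were 48.0 ± 4.0 and 45.7 ± 26.7 nt (SD, n = 3 each, exact permutation p = 1). With at least 5 tags and the libraries numbered 1 and 2 only, limma gave a log2 change of 0.29 (SE 0.13, adjusted p 0.88).

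Gimap7 had mean tails of 46.8 and 51.3 nt in WT1 and WT2 and of 60.1, 72.4 and 67.0 nt in DKO, the last from a single tag. WT3 had no Gimap7 tag. The libraries with a value did not overlap, but with 2 against 3 and as few as 4 tags in WT1 the gene was in no fit of tail length, and this difference was not tested. Of the 442 IDs with tags in every library, 22 (4.98%) had mean tails of all DKO libraries above all WT libraries. That share comes from 3 against 3 libraries and leaves Gimap7 out, and non-overlap is easier to reach with 2 against 3.

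**Figure D4:**
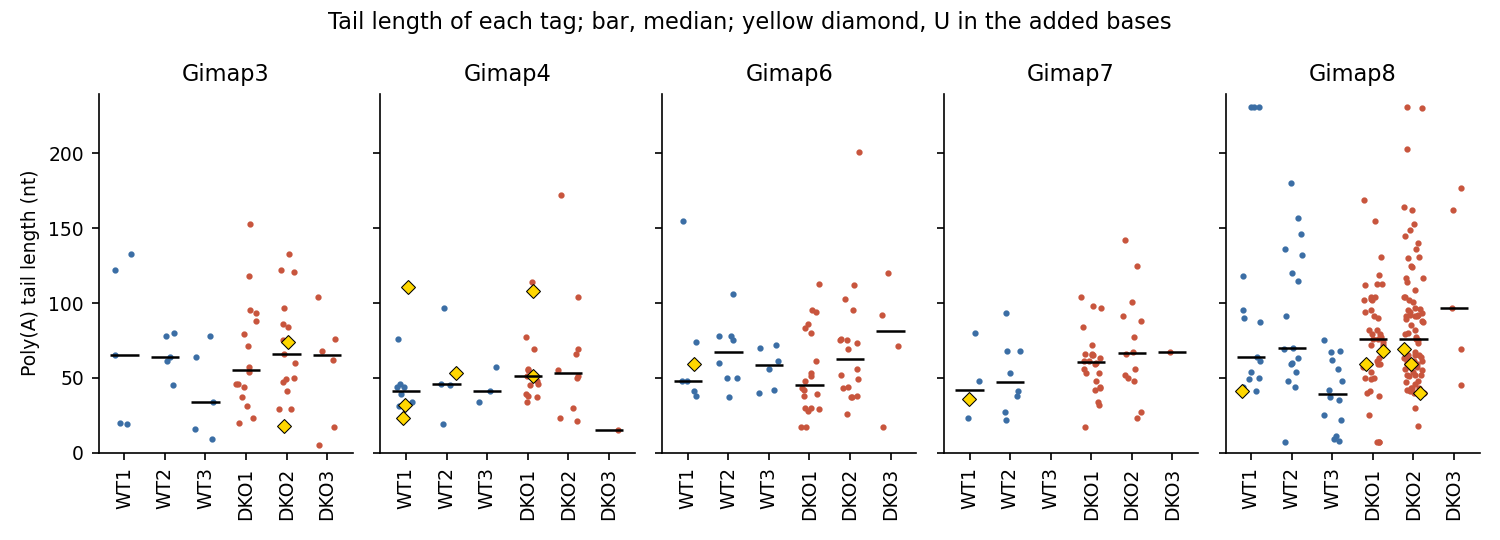
Poly(A) tail length in nt of every tailed tag (vertical axis) by library (horizontal axis) for 5 members; black bars are medians, blue is WT, red is DKO and yellow diamonds are tags with a U among the added bases. Gimap8 spans 7 to 231 nt with medians of 64, 70 and 39.5 nt in WT against 76, 76 and 97 nt in DKO, while the middle 50% of Gimap4 tags lie between 36.25 and 59.25 nt.

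The members covered a range of tail lengths. Over all 6 libraries the median tail was 46 nt for Gimap4, 56 for Gimap6, 60 for Gimap7, 63 for Gimap3 and 70 for Gimap8. The middle 50% of tags ran from 36.25 to 59.25 nt in Gimap4 and from 52 to 102 nt in Gimap8. Tails of 150 nt or more made up 15 of the 177 Gimap8 tags (8.47%) and 1 of the 44 Gimap4 tags (2.27%). Among the 508 IDs with 20 or more tailed tags in all, whose medians had a median of 67 nt, 93.9% had a longer median than Gimap4 and 40.2% a longer one than Gimap8. Tags of a library share its depth and tail calling, and Gimap8 drew more of its tags from DKO2 than Gimap4 did, so these are descriptions with no test. The Gimap8 lengths also carry the limit given above for T and C inside the called length. The tails of Gimap5, at 46 to 142 nt, and the single tags of Gimap1 (67 nt) and Gimap9 (61 nt) lay inside the range of the family.

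The share of short tails was highest in the libraries numbered 3 of both genotypes. Tails under 30 nt made up 9.52%, 9.09% and 25% of member tags in WT against 8.87%, 6.38% and 22.2% in DKO. Over all genes the same libraries had 25.3% and 15.4%, against 7.80% to 10.9% in the other 4. By called length, Gimap8 had 5 short tails among 14 in WT3 and 1 among 81 in DKO2.

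Uridine added after the tail, a mark that terminal uridylyltransferases place on mRNAs mainly once the tail is short, was uncommon in the family. It was present on 17 of 397 member tags (4.28%, exact 95% interval 2.51 to 6.77). By library it was on 7 of 42 tags in WT1 (16.7%), 1 of 44 in WT2 (2.27%) and 0 of 28 in WT3, and on 4 of 124 in DKO1 (3.23%), 5 of 141 in DKO2 (3.55%) and 0 of 18 in DKO3. WT1 stood above the rest, and the other 5 libraries were at 0 to 3.55%. Over all genes the share was 2.30% to 3.61% per library, and 2.51% in WT1. Of the 7 U-bearing tags of WT1, 5 were seen in 1 read each, and over all genes of WT1 the share among tags of 1 read was 2.40%. Of the 17 tags, 2 had a tail under 30 nt.

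Gimap4 had U on 6 of its 44 tags (13.6%, exact 95% interval 5.17 to 27.4), and it was singled out after its values were seen. They came from 3 libraries, 3 of 10 tags in WT1, 1 of 5 in WT2 and 2 of 15 in DKO1. Of the 508 IDs with at least 20 tags, 6 were at or above this share (1.18%), Gimap4 included, and the median ID was at 1.32%. Of the 6 Gimap4 tags with U, 1 was on a tail under 30 nt, and the others were on tails of 32 to 111 nt. The former, of 23 nt in WT1, had A after its U. Those of 32 and 111 nt in WT1, 53 nt in WT2 and 108 nt in DKO1 were seen in 1 read each. Gimap8 had U on 6 of 177 tags (3.39%), Gimap3 on 2 of 54 (3.70%), Gimap7 on 1 of 51 (1.96%) and Gimap6 on 1 of 63 (1.59%). The share of tags with U was not tested between genotypes for single members.

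**Figure D5:**
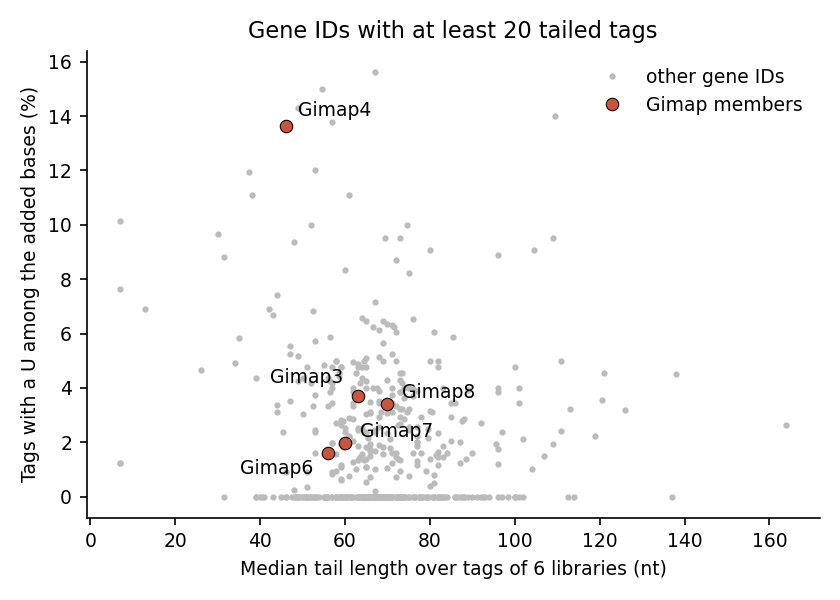
Median tail length in nt (horizontal axis) against the percentage of tags with a U among the added bases (vertical axis) for the 508 gene IDs that had 20 or more tailed tags over 6 libraries; red points are the 5 members in that set. Gimap4 lies at 46 nt and 13.6%, away from Gimap3, Gimap6, Gimap7 and Gimap8, which lie at 56 to 70 nt and 1.59% to 3.70%.

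The gene IDs whose counts ran most like the summed family over the 6 libraries, among 167 non-members in the count model, were ENSMUSG00000000682.7 (Pearson r = 0.85 with the log2 CPM of the family) and ENSMUSG00000069862.6 (r = 0.80). The former had 21, 20 and 26 tags in WT against 78, 78 and 12 in DKO, and the latter 41, 35 and 24 in WT against 85, 85 and 17 in DKO. The median r over the 167 was -0.02. These values come from 6 libraries that also differ in depth, and they are given as a description with no p.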

How the data were processed

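Poly(A) tails were measured by mTAIL-seq in 3 WT and 3 DKO libraries of naive CD4 T cells. Per the submitters' processing notes, GSNAP, bedtools and the mouse build mm10 (GRCm38) were used. Not given in the sources used here are the tail caller and the annotation release behind the gene links. The deposited tables list each tag with its read count, tail length in nt and added bases, and the deposited links pair tags with gene IDs. Per-gene counts deposited by the authors equalled a recount of the links for each member listed in a library's table (4 to 7 of the 8), as did their geometric mean tails to within 1e-06 nt.

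Tags with a tail of 5 nt or more were counted per ID, with 3943 to 24024 such tags per library. A depth of 3943 tags makes 1 tag in DKO3 worth 2.54 per 10000. For tag counts the model was the quasi-likelihood fit of edgeR 4.0.16 under R 4.3.3, with TMM scaling and filterByExpr, with DESeq2 1.42.0 as an alternative, and log2 mean tails with limma 3.58.1, all fitted over all IDs with Benjamini-Hochberg adjustment and a threshold of 0.05. Single values used two-sided exact permutation tests (numpy 2.4.6), and shares exact binomial 95% intervals (scipy 1.17.1). The model scripts were also run on simulated data without the shorter tails of the libraries numbered 3, so that run cannot show how the models handle them. PCR reads without molecular identifiers are not independent molecules, so intervals and floors (3 counts) cover counting error only. Member names came with the ID list, and gene positions from RefSeq (GRCm38.p6).

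All 8 members were named, and the like-pattern genes were the 2 non-member IDs with the highest correlation. The rule for members uses no measured value, but the family and the lists were taken up with earlier results of these data known. Lists of survival genes, other GTPases and cell type markers were not analysed here, because the tables used do not pair those IDs with names. Replicate numbers are not said to pair the libraries. The main fits and the exact tests therefore used genotype alone, with the replicate block as an alternative. Deviations of same-numbered libraries from their genotype mean correlated at r = 0.14, 0.21 and 0.38 over 170 IDs. However, WT2 with DKO1 (0.38) and WT1 with DKO2 (0.29) correlated more than the pairs numbered 1 and 2.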

Additional observations from a re-analysis of the deposited data

How the results depend on the processing

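No member was called for tail length in any setting run, most of which left no member with enough tags to test. For tag count, 1 member was called in 1 setting, Gimap8 with the libraries numbered 1 and 2 only (log2 change 1.10), chosen after seeing the data. Both counts were 0 to 0 when each library was left out. With the replicate block, edgeR called 3 of 170 IDs (1.76%) against 0, none of them a member; Gimap3 was at 1.01 (adjusted p 0.33), Gimap8 at 0.76 (adjusted p 0.36) and Gimap6 at 0.52 (adjusted p 0.68), and no call of a member changed. Without WT3, edgeR called 8 of 241 IDs, no member among them. The family's share stayed higher in DKO throughout. The difference of 20.6 per 10000 became 12.3 without Gimap8 and ran from 15.9 to 25.2 when each library was left out. With the 10 most-tagged gene IDs taken out of the totals, the means were 55.1 in WT and 76.5 in DKO. The ratio was then 1.39, and 1.06 between the libraries numbered 3. With totals multiplied by the TMM factors the difference was 12.3, but those factors do not match these totals, as said above. The family's mean tail difference (9.61 nt) was -0.82 nt with numbers 1 and 2 only and ran from -0.023 nt (without WT3) to 14.97 nt over the libraries left out. The difference in tails under 30 nt (-2.05 percentage points) was 1.23 with a limit of 20 nt and ran from -6.91 to 3.18, the latter without WT3, with 1.01 without DKO2. The difference in U (-4.06 points) ran from -7.21 to 1.12, the latter without WT1. Mean tail differences of single members turned in sign: Gimap3 (4.38 nt) to -5.12 without WT3, -0.996 with numbers 1 and 2 and -1.88 relative to the library mean, running from -5.12 to 10.7 over the libraries left out; Gimap4 (-2.34 nt) to 13.0 without DKO3 and 11.0 with numbers 1 and 2, running from -11.6 to 13.0; Gimap6 (3.06 nt) to -0.14 without WT3, -1.29 without DKO3, -2.92 by geometric mean, -4.49 with numbers 1 and 2 and -3.20 relative to the library mean, running from -1.29 to 9.29; Gimap8 (13.6 nt) to -4.72 without WT3 and -14.5 with numbers 1 and 2, running from -4.72 to 24.7. The causes were not tested. Counts placed by mapped position were not run, since the tables used hold no coordinates. With 18 member tags in DKO3 and 28 in WT3, depth limits every comparison that rests on the libraries numbered 3.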

Other observations

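Bases other than A and U were rare after Gimap tails: over the 6 libraries, 2 of the 397 member tags had a G and 2 had a C among the added bases. Of the 397 tags, 174 were seen in a single read, and the most-read tag had 15 reads. Without Gimap8, the mean tail of the remaining members was 60.4, 60.0 and 48.1 nt over the WT libraries against 60.5, 69.4 and 61.2 nt over the DKO libraries. These groups did not overlap, by a margin of 0.086 nt between WT1 and DKO1. Leaving out Gimap8 was not planned, and the difference was not tested. Among single IDs, 22 of 442 (4.98%) had mean tails of all DKO libraries above all WT libraries. Over all genes, the mean tail was 48.3 nt in WT3 and 60.9 nt in DKO3.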
